A study of Rattus norvegicus with 6 samples.

Results

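The Hox genes are the homeobox transcription factors that record position along the body and the limb, and here they were measured in cultured stem cells from rat skeletal muscle. They were taken as the probe sets whose only annotated gene symbol is Hoxa, Hoxb, Hoxc or Hoxd followed by a number. This gave 31 probe sets, 1 for each of 31 genes, among 36685 probe sets in all and among 18166 named genes. RefSeq lists 39 rat Hox genes, and the other 8 were not analysed here.

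The cells were isolated by plating from the muscle of male rats and carried in flasks or multiwell plates, and their RNA was read on Affymetrix Rat Gene 2.0 ST arrays. There are 6 groups with 1 array each: a low glucose control, a high glucose control, LZ serum, OZ serum, cholesterol at 100 mg/dl with cyclodextrin as carrier, and a fatty acid, for which the labels name sodium palmitate without a dose. The labels do not spell out LZ and OZ. They do not name the muscle or the age of the rats, do not say how many rats were used, which control belongs to which lipid, or whether a control held cyclodextrin. No group has a replicate, so no value carries an error and no test or p-value was possible. A difference is one between cultures, not shown to be one between treatments, and having so few arrays limits the precision. In such bulk RNA, fewer cells of a type and less RNA per cell cannot be told apart.

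Median intensity ran from 105 to 109 over the arrays. Of 15 measured markers of mesenchymal progenitors, 15 lay above the array-wide median, with means of log2 13.76 for Vim, 13.39 for Thy1 and 13.44 for Col1a1. Of 14 markers of myogenic progenitors, 8 did, and so did 63.6% of all genes. The surface proteins Ncam1 and Met had means of 12.13 and 10.44, Cdon, a co-receptor of myoblasts, 9.87 and the integrin Itga7 7.70. The satellite cell factor Pax7 had a mean of 7.05, Des, the muscle intermediate filament, 6.92, and the myogenic factors Myod1 and Myf5 lay below the median at 6.36 and 6.05. The myogenic list thus held members far above the median as well as members near or below it. Of 6 measured endothelial markers 0 were above the median, of 9 macrophage and leukocyte markers 2 (Cd14 and Cd68), and of 6 epithelial markers 2. Of 6 measured Schwann and neural markers, 5 were above it. S100b had a mean of 10.37, Tubb3 7.57, Ngfr 7.17 and Sox10 7.05.

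Hox genes lie in 4 clusters on separate chromosomes, and their order in a cluster follows their number. Low numbers are switched on first and towards the head, and high numbers later and towards the tail. In the limb, the high-numbered genes of clusters A and D pattern the parts farther from the trunk. Genes with the same number in different clusters are called paralogs and have similar homeodomains. Adult connective tissue cells are known to keep a Hox pattern of the place they came from, held in part by Polycomb and trithorax complexes.

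The clusters also hold microRNA genes, and these are shown because the array has probe sets for them and because miR-196 is known to pair with Hox messenger RNAs. Capitals mark the seed, bases 2 to 8 of the mature RNA, in sequences credited to RefSeq with positions in build GRCr8. The 3 miR-196 genes share 1 seed. They lie at chr7:135988900-135988921 on the plus strand (Mir196a, Hoxc cluster), chr4:82661149-82661170 on the minus strand (Mir196b, Hoxa cluster) and chr10:81727561-81727582 on the plus strand (Mir196c, Hoxb cluster).
rno-miR-196a-5p: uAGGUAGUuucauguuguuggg
rno-miR-196b-5p: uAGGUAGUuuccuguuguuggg
rno-miR-196c-5p: uAGGUAGUuucguguuguuggg
The miR-10 pair, from chr10:81779730-81779752 (Mir10a, Hoxb cluster) and chr3:80035886-80035907 (Mir10b, Hoxd cluster), both on the plus strand, is as follows.
rno-miR-10a-5p: uACCCUGUagauccgaauuugug
rno-miR-10b-5p: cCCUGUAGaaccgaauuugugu

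Promoter sequences were found in the RefSeq table for 15 of the 31 Hox genes, as 16 windows of 250 bases before the gene's start. 4 are shown. Hoxa13 and Hoxd13 are paralogs from the high-numbered ends of clusters A and D, and both lay far above the threshold. Hoxd1 lies at the other end of cluster D and was below it, and Hoxb1 lay next to the threshold. In the first 3, capitals mark the GC box, GGGCGG on either strand, to which Sp1 and related factors are known to bind. In Hoxb1 they mark the Pbx-Hox element TGATNNAT, where N is any base.
Hoxa13, chr4:82691702-82691951, minus strand: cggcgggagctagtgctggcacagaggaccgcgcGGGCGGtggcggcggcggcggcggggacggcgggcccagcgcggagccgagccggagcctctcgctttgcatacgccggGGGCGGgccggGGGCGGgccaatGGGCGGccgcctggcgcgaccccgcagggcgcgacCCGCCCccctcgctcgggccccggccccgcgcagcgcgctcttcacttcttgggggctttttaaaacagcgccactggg
Hoxd13, chr3:79977827-79978076, plus strand: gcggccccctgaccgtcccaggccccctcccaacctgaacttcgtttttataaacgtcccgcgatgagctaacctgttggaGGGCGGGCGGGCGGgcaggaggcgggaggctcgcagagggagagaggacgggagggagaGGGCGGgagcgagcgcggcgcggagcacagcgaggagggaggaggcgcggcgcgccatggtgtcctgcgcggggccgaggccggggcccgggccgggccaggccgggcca
Hoxd1, chr3:80072791-80073040, plus strand: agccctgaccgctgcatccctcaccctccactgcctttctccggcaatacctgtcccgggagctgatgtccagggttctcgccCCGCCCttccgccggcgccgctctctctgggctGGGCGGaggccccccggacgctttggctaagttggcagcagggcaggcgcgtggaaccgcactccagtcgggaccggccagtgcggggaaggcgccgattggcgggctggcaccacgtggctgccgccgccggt
Hoxb1, chr10:81827665-81827914, plus strand: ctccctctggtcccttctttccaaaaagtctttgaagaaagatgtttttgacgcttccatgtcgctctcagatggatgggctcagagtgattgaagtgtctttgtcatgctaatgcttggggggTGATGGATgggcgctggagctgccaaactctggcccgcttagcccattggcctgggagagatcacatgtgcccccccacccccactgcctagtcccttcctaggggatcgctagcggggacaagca
The Hoxa13 window holds 5 GC boxes and 39 CpG pairs, and the Hoxd13 window 4 GC boxes, of which those in the long capital run overlap, and 30 CpG pairs. Hoxd1 holds 2 GC boxes and 25 CpG pairs. Hoxb1 holds 6 CpG pairs, 1 Pbx-Hox element and no GC box. Among the windows not shown, that of Hoxa6, far above the threshold, holds 4 GC boxes. Those of Hoxd10 and Hoxa10, also far above it, hold none, and that of Hoxa4, just below it, holds 2. The GC box occurred in 7 of the 15 Hox genes with a window, against 30.5% of all 33469 promoter windows of this length. The Pbx-Hox element occurred in 2 of 15 (Hoxa2 and Hoxb1), against 7.96%, and the CCAAT box (CCAAT) in 11 of 15, against 34.0%, all searched on both strands. The ratio of observed to expected CpG had a median of 0.83 over the 12 windows of Hox genes above the threshold, 0.84 over the 4 windows of those below it, and 0.38 over all promoters. A match is a string of letters and was not tested as a binding site.

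The first question was which clusters and positions were expressed. Values are log2 of the deposited intensity, and the threshold is the median over all probe sets of their means across the 6 arrays, log2 6.74. Of the 31 Hox genes, 19 (61.3%) were at or above it. The same held for 63.6% of all 18166 named genes, so the count is near the background. At the 75th percentile, log2 8.68, there were 6 Hox genes (19.4%) against 35.8% of all genes. A further reference came from 1344 olfactory and vomeronasal receptor genes, most of which are known from the sensory lining of the nose. Single members are known to act in muscle cells, so the family is only an approximate reference for low signal. Their median was 4.52, and 78 of them (5.80%) exceeded the array-wide median. The 95th percentile of these receptor genes was 6.84, and 18 Hox genes were at or above that, against 61.8% of all genes. These thresholds compare different probe sets, and probes differ in how strongly they hybridise. A gene's place against a threshold is therefore only an approximate guide to its level.

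**Figure D1:**
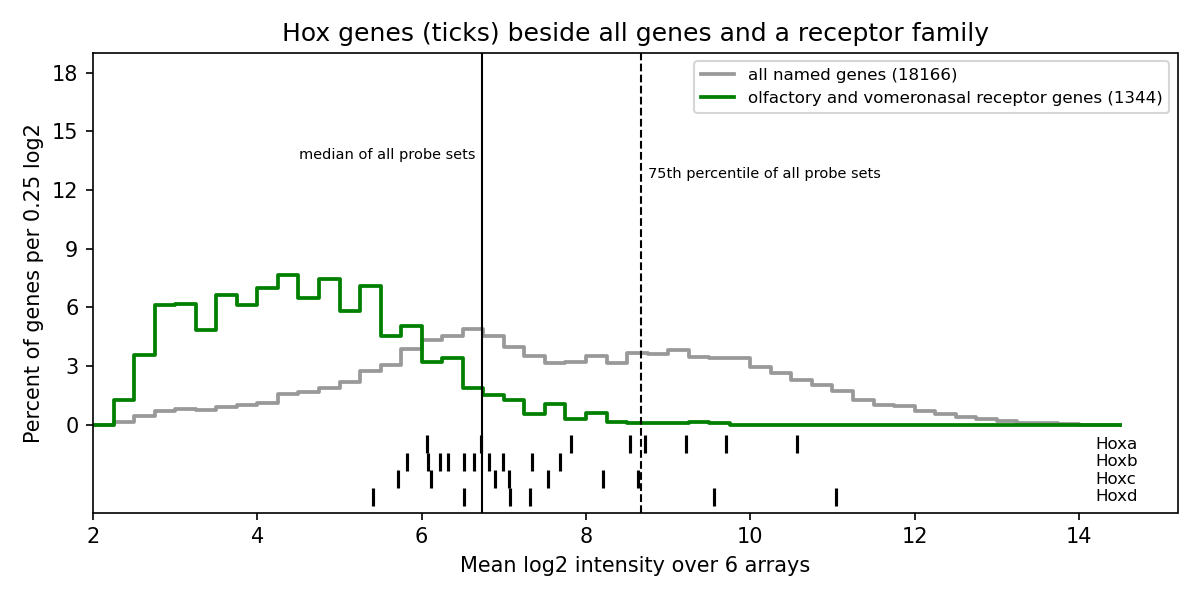
Mean log2 intensity over the 6 arrays for all 18166 named genes (grey) and 1344 receptor genes (green), as percent of genes per bin of 0.25 log2, with each Hox gene as a tick by cluster below. Of the 31 ticks, 19 lie right of the solid line at the median (6.74) and 6 right of the dashed line at the 75th percentile (8.68).

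Clusters A and D held the 6 genes above the 75th percentile. In cluster A, on chromosome 4, 6 of 8 measured genes passed the median and 4 the 75th percentile. In cluster D, on chromosome 3, 4 of 6 passed the median and 2 the 75th percentile. In cluster C, on chromosome 7, 5 of 7 passed the median, and in cluster B, on chromosome 10, 4 of 10, with 0 above the 75th percentile in either. By position, 4 of 6 genes with numbers 1 to 3 were above the median, 6 of 13 with numbers 4 to 8, and 9 of 12 with numbers 9 to 13. Of the last 12, 4 (33.3%) were above the 75th percentile. Of all genes, 63.6% passed the median and 35.8% the 75th percentile. By position, in the same order, 66.7%, 46.2% and 75% of the Hox genes passed the median. In clusters A, B, C and D the shares were 75%, 40%, 71.4% and 66.7%. Several of these small groups were therefore near the background.

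**Figure D2:**
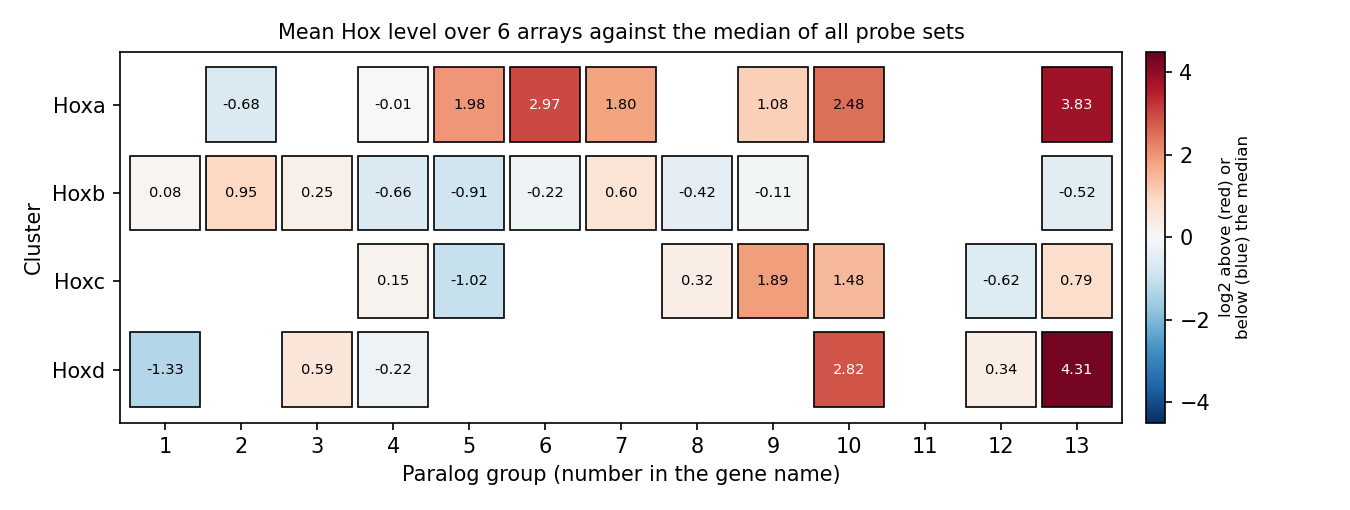
Map of the 4 Hox clusters by paralog number, coloured by the mean log2 intensity over 6 arrays minus the array-wide median, with 1 box for each of the 31 genes. Differences run from -1.33 (Hoxd1) to 4.31 (Hoxd13), and cluster B shows no value over 0.95.

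The highest-numbered genes of clusters A and D, which pattern the ends of the limbs, lay far above the threshold. Hoxd13 (probe set 17763045), known for its role in digits, read 11.02 in the low and 11.10 in the high glucose control, 11.19 with LZ serum, 11.29 with OZ serum, 10.74 with cholesterol and 10.93 with fatty acid. Hoxa13 (17791409), its partner in the hand and foot plate, read 10.59, 10.79, 10.59, 10.60, 10.64 and 10.20 in the same order. Both were above the 75th percentile of all probe sets, log2 8.68, on every array. The lowest Hoxd13 value was in the cholesterol library and the lowest Hoxa13 value in the fatty acid library. Without the lipid libraries, the range over arrays was 0.27 for Hoxd13 and 0.20 for Hoxa13, against 0.55 and 0.60 with them. A range over fewer arrays cannot be larger, so the direction of this change was fixed in advance. Hoxd12, also a digit gene, read 7.20, 6.86, 7.15, 7.02, 6.99 and 7.23, above the threshold on all arrays.

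Of the other genes of group 13, Hoxc13 was above the threshold and Hoxb13 below it. Hoxc13, known for hair and nail, read 7.58, 7.48, 7.50, 7.50, 7.54 and 7.59, a range of 0.11. Hoxb13, a gene of the tail and prostate, lay below, between 6.02 and 6.38. Hoxc12 lay below as well, between 6.04 and 6.20.

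Group 10, which patterns the lumbar axis and the upper part of the limb, was above the threshold in 3 of 3 measured genes. Hoxd10 (17763052) read 9.25 in the low and 9.61 in the high glucose control, 9.71 with LZ serum, 9.73 with OZ serum, 9.42 with cholesterol and 9.63 with fatty acid. Hoxa10 (17791404) read 9.12, 9.30, 9.10, 9.05, 9.20 and 9.55, and Hoxc10 (17832714), known from hindlimb, 8.17, 8.13, 8.15, 8.08, 8.32 and 8.42. The fatty acid array was the highest of the 6 for Hoxa10 and Hoxc10, and the low glucose control the lowest for Hoxd10. The Hoxa10 probe set is named by its symbol alone, and RefSeq carries Hoxa10 also as an older name of Hoxa11, so which of those neighbours it reads is not settled. Group 9 passed in 2 of 3. Hoxc9 read 8.51, 8.74, 8.57, 8.56, 8.60 and 8.81 and Hoxa9 read 7.56, 7.79, 7.80, 7.69, 7.88 and 8.17, whereas Hoxb9 stayed just below the threshold with a mean of 6.63.

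In the middle of cluster A, 3 neighbouring genes of the trunk were clearly above the threshold. Hoxa5, which acts in the lower neck and the lung, read 8.56, 8.88, 8.72, 8.74, 8.59 and 8.81. Hoxa6 (17791387) read 9.67, 9.72, 9.65, 9.70, 9.72 and 9.79, a range of 0.14. Hoxa7, a gene of the thoracic axis, read 8.45, 8.61, 8.57, 8.60, 8.72 and 8.28, lowest with fatty acid. Hoxa5 was the member just inside the 75th percentile, with a mean of 8.72, and Hoxc9 and Hoxa7 were just outside it, at 8.63 and 8.54. The corresponding genes of cluster B did not all follow: Hoxb7 was above the median with a mean of 7.34 (7.36, 7.24, 7.62, 7.33, 7.01 and 7.49), Hoxb5 (mean 5.83) and Hoxb6 (6.52) below. Hoxc8, a thoracic gene, had 6.78, 7.16, 7.02, 7.13, 6.91 and 7.36, Hoxb8 a mean of 6.31, and Hoxc5 a mean of 5.71.

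At the low-numbered ends, 4 of 6 genes with numbers 1 to 3 passed the median and none passed the 75th percentile. Hoxb2, a hindbrain gene, read 7.67, 7.64, 7.68, 7.62, 7.51 and 7.98. Hoxd3 read 7.35, 7.27, 7.30, 7.23, 7.31 and 7.48, and Hoxb3, which acts in the neck, 6.86, 7.02, 6.99, 6.84, 7.02 and 7.20. The fatty acid array was the highest for each of these genes. Hoxb1, a marker of a single hindbrain segment, was just inside the threshold with a mean of 6.82, and exceeded the array's own median on 3 of 6 arrays (6.84, 6.66, 6.95, 6.75, 6.71 and 6.99). Hoxa2 and Hoxd1 lay below with means of 6.06 and 5.41. In group 4, Hoxc4 was just inside with a mean of 6.89 (6.79, 6.98, 6.66, 6.74, 7.05 and 7.13) and above its array's median on 4 arrays. Hoxa4 was just outside with a mean of 6.73 (6.59, 6.70, 6.56, 6.74, 6.88 and 6.89), and Hoxd4 and Hoxb4 had means of 6.52 and 6.07. A threshold cannot separate members that lie this near to it.

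**Figure D3:**
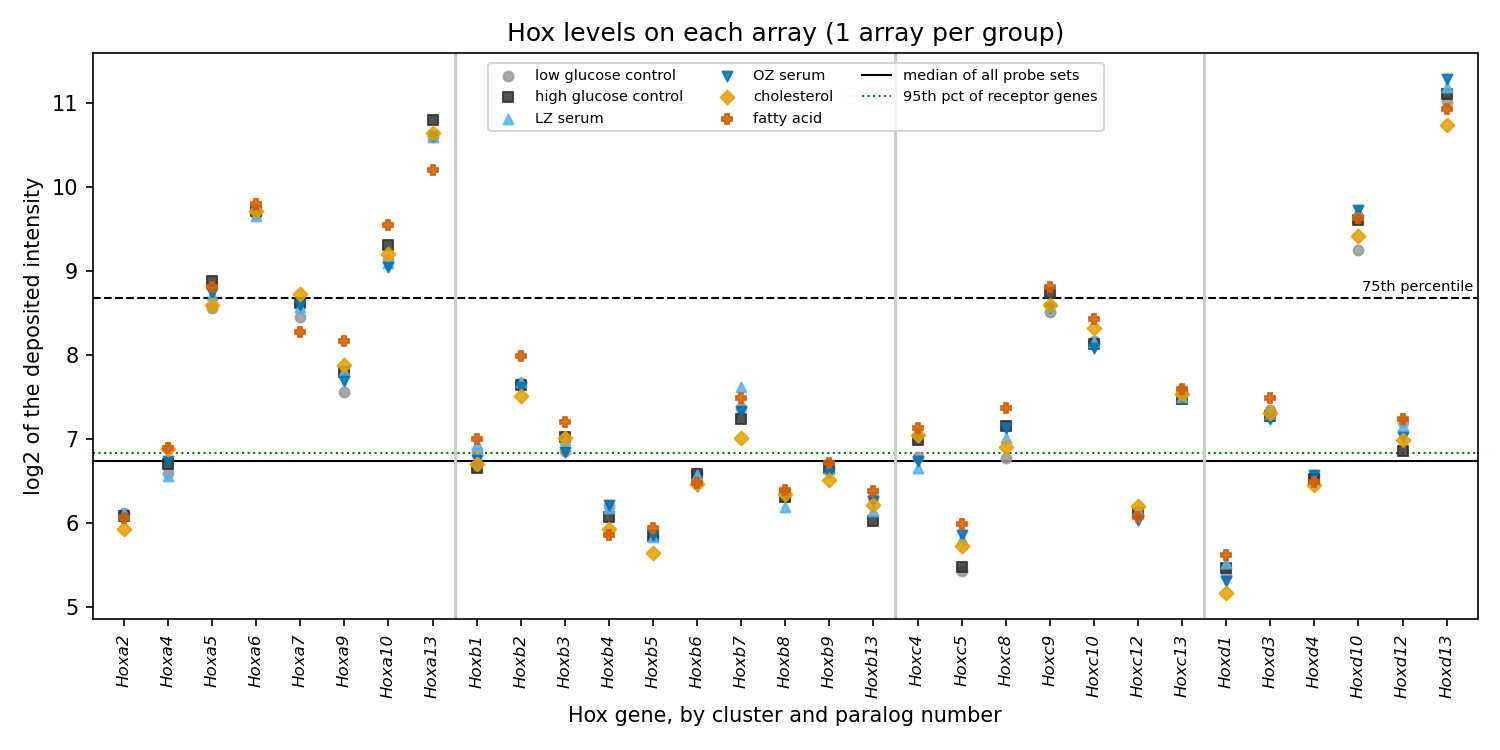
Log2 intensity of each of the 31 Hox genes on each of the 6 arrays (1 symbol per array, no error bars), by cluster and paralog number, with the array-wide median (6.74), the 95th percentile of receptor genes (6.84) and the 75th percentile (8.68). Values of a gene lie close together, within 0.61 at most, while Hoxa13, Hoxd13, Hoxa6, Hoxa10 and Hoxd10 lie above 8.68 on every array.

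The number of Hox genes above an array's own median was alike on the 6 arrays. In cluster A it was 7 with cholesterol and with fatty acid and 6 on the other arrays, in cluster B 3 or 4, in cluster C 4 or 5, and in cluster D 4. The seventh gene of cluster A in the lipid libraries was Hoxa4, which lies next to the threshold.

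MicroRNA genes of the clusters gave mixed values. Mir196c, beside Hoxb9, read 8.07 in the low and 8.18 in the high glucose control, 8.22 with LZ serum, 8.56 with OZ serum, 8.40 with cholesterol and 7.76 with fatty acid. Mir196b had a mean of 6.80, next to the threshold, and Mir196a 5.22. Mir10a (2.84) and Mir10b (3.13) lay below. Mature microRNAs were not measured separately, and which part of each transcript these probe sets read is not given in the sources used here. Among other neighbours, Hoxa11-as, an antisense RNA of cluster A, read between 7.55 and 7.99, Evx1, a homeobox gene at the end of cluster A, had a mean of 7.58, and Evx2, at the end of cluster D, 7.75.

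The second question was whether a treatment changed these genes. For a library with several references, the difference nearest to 0 was taken if the gene lay on the same side of all of them, and 2-fold or more was counted among genes above the median. Of the 19 Hox genes, 0 were 2-fold higher or lower in any of the 6 comparisons, and 0 were 1.5-fold apart by this rule, which takes the nearest reference. Among all 11561 genes above the median, the share at 2-fold either way was 1.19% for cholesterol against both controls, 2.66% for fatty acid against both controls and 2.82% for cholesterol against fatty acid. It was 0.0259% for OZ against LZ serum, 0.363% for high against low glucose and 0.0% for both serum libraries against both controls. At 1.5-fold the shares were 3.4% for cholesterol, 9.05% for fatty acid and 11.7% for cholesterol against fatty acid. They were 0.277% for OZ against LZ serum, 2.71% for the controls and 0.0173% for serum against controls. Against a single control, 1.5-fold was reached with fatty acid by Hoxa13 against the high glucose control (-0.60) and by Hoxa9 (0.60) and Hoxc8 (0.59) against the low glucose control. Of all genes, 13.2% and 13.8% reached it against these controls. With cholesterol 0 Hox genes did, against 6.04% and 5.8% of all genes. With so few calls among all genes, a count of 0 among 19 members says little about the members.

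Over all 6 arrays, the 19 Hox genes had a median range of 0.45 log2 (from 0.11 to 0.61), and 0 had a range of 2-fold. For all genes above the median the median range was 0.41, and 7.49% had a range of 2-fold. The typical range of the Hox genes was therefore much like that of other genes. The largest was in Hoxb7, at 0.61.

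With cholesterol, 11 of the 19 Hox genes lay between the controls. Of 19, 5 were higher than both controls by any amount (36.3% of all genes were) and 3 were lower (33.6%), with a median of -0.01 against 0.01 for all genes. Each median here and below is taken over the genes' mean differences from the reference arrays. With each array centred on its median, 4 Hox genes were higher and 7 lower. The medians were then -0.07 for the Hox genes and -0.05 for all genes. Hoxc10 was 0.15 higher at the least, and Hoxd13 0.28 lower (a value of -0.28). Hoxb2 and Hoxb7 were the other lower genes, with differences of -0.13 and -0.16 and of -0.23 and -0.35 from the high and low glucose control.

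In the fatty acid library most Hox genes were slightly higher than in both controls. Of 19, 15 were higher by any amount, against 40.4% of all genes, and 3 were lower, against 39.7%, with a median of 0.20 against 0.00. Among the higher genes, Hoxa9 had the largest difference, 0.37 from the high and 0.60 from the low glucose control, followed by Hoxb2 (0.34 and 0.31), Hoxc10 (0.29 and 0.25) and Hoxa10 (0.24 and 0.42). Hoxa13 (-0.60 and -0.40), Hoxa7 (-0.34 and -0.17) and Hoxd13 (-0.17 and -0.09) were the lower genes, and Hoxa5 lay between the controls. All of these differences are under 2-fold.

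The small upward difference was uneven by level. Of the 13 Hox genes between the median and the 75th percentile, 12 were higher and 1 lower with fatty acid (median 0.24), where 43.2% of all 5049 genes at that level were higher and 36.2% lower (median 0.02). Of the 6 above the 75th percentile, 3 were higher and 2 lower (median 0.09). Of all genes at that level, 38.1% were higher and 42.4% lower (median -0.02). Of the 12 Hox genes below the median, 7 were higher and 5 lower (median 0.07). Of all genes below the median, 50.5% were higher and 24.5% lower, also with a median of 0.07. Receptor genes were also more often higher than lower in this library: 681 of 1344 (50.7%) were higher than both controls and 298 (22.2%) lower, with a median of 0.11. With cholesterol 475 receptor genes were higher and 421 lower. Quantile normalization left the count at 15 higher and 3 lower. An added offset of 32 keeps the order of a gene's values and could not change this count. The count was 12 and 3 when each array was centred on its median, and 13 and 3 after cyclic loess. The Hox median lay between 0.15 and 0.21 under these settings. The summed intensity of the 15 mesenchymal markers was 74285 with fatty acid and 81537 with cholesterol, against 86720 to 91594 in the other libraries, and 10 of these markers were lower than both controls with fatty acid and 2 higher. Col3a1 (-1.05), Nt5e (-0.86), Pdgfrb (-0.84), Cd34 (-0.84) and Col1a1 (-0.67) were at least 1.5-fold lower. The summed intensity of the 14 myogenic markers was 5575 with fatty acid, against 8011 to 9089. The largest term of this sum, Ncam1, read log2 11.37 with fatty acid and 12.15 to 12.43 in the other libraries. Of the 8 myogenic markers above the median, 4 were higher and 4 lower (median -0.06). Cdon (-1.0) and Ncam1 (-0.90) were at least 1.5-fold lower, with Pax7 at 0.22 and Des at 0.18. The macrophage markers Cd68 and Cd14 had cholesterol values of 1.56 and 0.51 and fatty acid values of 0.40 and -0.60, and the neural marker Tubb3 had a cholesterol value of -0.74. The part of receptor background, scaling or cell makeup in the Hox differences was not tested.

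Set against each other, cholesterol was lower than fatty acid in 17 of 19 Hox genes (48.1% of all genes were) and higher in 2 (51.9%), with a median of -0.21 against 0.01. Hoxa7 was 0.45 and Hoxa13 0.44 higher with cholesterol, and Hoxb7 (-0.48), Hoxb2 (-0.47) and Hoxc8 (-0.45) were lower. This comparison and the fatty acid comparison use the same fatty acid array, and both lipid comparisons share the controls, so they are not independent of each other.

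The glucose controls also differed from each other. In the high glucose control, 12 of 19 Hox genes were higher than in the low glucose control and 7 lower (48.9% and 51.1% of all genes), with a median of 0.16 against -0.01. Hoxc8 was higher by 0.38 and Hoxd10 by 0.36, and Hoxd12 had a difference of -0.35. OZ serum was higher than LZ serum in 9 Hox genes and lower in 10 (41.9% and 58.1% of all genes), from -0.29 for Hoxb7 to 0.11 for Hoxc8. Centring each array on its median turned this to 4 higher and 15 lower. The median of all genes then moved from -0.03 to -0.06, and that of the Hox genes from -0.01 to -0.04. Both serum libraries were above both controls in 2 Hox genes and below in 2 (8.82% and 19.7%), with values from -0.05 for Hoxc4 to 0.11 for Hoxd10. With centred arrays 2 were above and 4 below, with medians of -0.04 for the Hox genes and -0.06 for all genes.

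**Figure D4:**
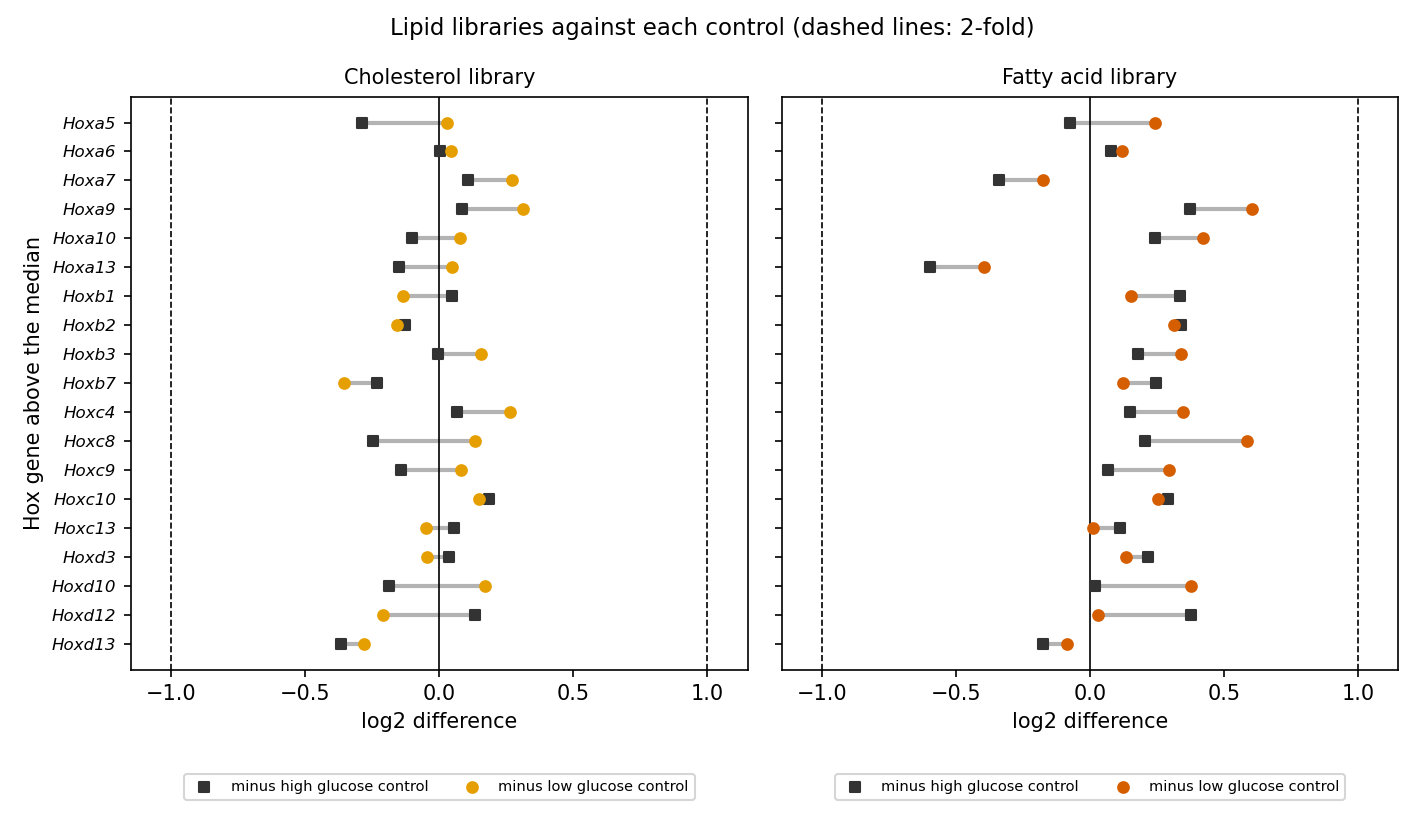
Log2 differences of the cholesterol (left) and fatty acid (right) library from the high (squares) and low (circles) glucose control for the 19 Hox genes above the median, joined by a line per gene, with no error bars since each group has 1 array. No difference reaches 1 (2-fold), and the largest in size against a control is 0.60, in the fatty acid library.

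Hox proteins bind DNA with cofactors of the TALE family, and 8 of 8 measured genes of that family were above the median, against 63.6% of all genes. Pbx3 had a mean of 10.32, Meis1 9.83, Meis2 9.12 and Pbx2 8.80. With fatty acid 2 of these 8 were higher than both controls and 6 lower, against 40.4% and 39.7% of all genes. With cholesterol 3 were higher and 2 lower, against 36.3% and 33.6%, and 0 were 2-fold apart with either (1.19% and 2.66% of all genes with cholesterol and fatty acid). These shares of all genes are the background for the lists that follow as well.

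Other regulators of position in the limb and trunk were above the median in 24 of 29. Tbx5, a forelimb factor, read 9.76, 9.78, 9.74, 9.52, 9.66 and 9.87, and Tbx4, a hindlimb factor, 8.99, 9.11, 8.88, 8.93, 8.93 and 9.09. Both were above the 75th percentile on all arrays, whereas Pitx1, the hindlimb determinant, had a mean of 6.68, below the median. The mesenchymal factors Prrx1 and Prrx2 had means of 13.01 and 10.48, and Shox2, of the upper limb, 10.30. Shox2 was at least 1.5-fold lower with fatty acid (-0.65, and -0.55 with cholesterol), and Prrx2 was 0.88 higher with cholesterol than with fatty acid. With cholesterol 10 of the 24 were higher and 10 lower than both controls, and with fatty acid 9 and 10. Of 9 measured regulators of head and neck position, 7 were above the median and 1, Otx1, above the 75th percentile with a mean of 8.94. Pax3, of the neural crest and muscle precursors, had a mean of 8.18 and a fatty acid value of -0.62. Dlx5, a regulator of jaw and skeleton, had a fatty acid value of -0.71 and a cholesterol value of -0.52, and Alx1, of the face, was 0.60 higher with cholesterol than with fatty acid.

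Polycomb and trithorax genes, whose products keep Hox genes off or on, were above the median in 21 of 21, against 63.6% of all genes. Rbbp4 had a mean of 11.56, Rbbp7 11.18, Rnf2 10.48 and Pcgf2 10.14. With cholesterol 8 were higher than both controls and 2 lower (36.3% and 33.6% of all genes), and with fatty acid 12 and 4 (40.4% and 39.7%), with 0 at 2-fold. Of the retinoic acid pathway, a known inducer of low-numbered Hox genes, 9 of 15 were above the median. Dhrs3, which turns retinaldehyde back into retinol, read 9.04 in the low and 9.24 in the high glucose control, 9.78 with LZ serum, 9.14 with OZ serum, 7.73 with cholesterol and 7.83 with fatty acid. It was 2.47-fold lower with cholesterol and 2.31-fold lower with fatty acid than in either control at the least. The values in both lipid libraries were below all other arrays. In the lipid comparisons, Dhrs3 and Egr2 were the only genes at 2-fold among 87 above the median on these 7 lists of related genes. Among genes beside the clusters, 11 of 16 were above the median, and Hibadh, an enzyme of valine breakdown near cluster A, had a fatty acid value of -0.60. Skap2, an adaptor protein gene at the other side of cluster A, was 0.63 higher with cholesterol than with fatty acid, and so was Mir196c.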

How the data were processed

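RNA from 6 cultures was read on Affymetrix Rat Gene 2.0 ST arrays, 1 per group, and the titles of the samples give the groups. The deposited table holds a linear intensity for each of 36685 probe sets. How probes were summarised, corrected for background and normalized is not given in the sources used here. Log2 was taken without an offset. Of these, 18511 have 1 gene in the platform annotation and were used, 575 have several and 17599 have none. A gene with several probe sets took the one with the highest mean. All 31 Hox symbols were in RefSeq (GRCr8), 28 of them also by Entrez identifier, and Hoxa2, Hoxa4 and Hoxa10 by symbol only. Named were the Hox genes, their neighbours and, from each list, genes at least 1.5-fold apart in a lipid comparison and some of the 4 with the highest means. Pax7, Des, Myod1, Myf5, Tbx4, Tbx5, Pitx1, Cdx1, Cdx2 and Cdx4 fall outside this rule and were picked with their values in view. The members, the 13 lists and the rules were chosen with earlier results of these data known. With 1 array per group no test was possible. Alternatives were other scalings, an offset of 32, other filters, thresholds and references. The scripts were tested on simulated data. Python 3.11.15, numpy 2.4.6, pandas 2.3.3, matplotlib 3.10.9, R 4.3.3 and limma 3.58.1 were used.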

Additional observations from a re-analysis of the deposited data

How the results depend on the processing

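The same 19 Hox genes were above the array-wide median after quantile normalization, cyclic loess, leaving out both lipid libraries and using the controls alone. Median centring and averaging of probe sets could not change this count: centring keeps each mean's distance from the median, and each Hox gene has 1 probe set. The 75th percentile left 6. The median over probe sets with 1 gene, log2 7.60, left 11. It lost Hoxb1, Hoxb3, Hoxb7, Hoxc4, Hoxc8, Hoxc13, Hoxd3 and Hoxd12. By definition, as many of the probe sets with 1 gene lie above that median as below it. The 95th percentile of receptor genes left 18 (without Hoxb1), all 6 arrays 17 (without Hoxb1 and Hoxc4), and at least 1 array gave 20 (with Hoxa4). The count of Hox genes at 2-fold was 0 in every comparison under each single change of setting, the 1.5-fold threshold and single controls included. With both of these together, chosen after seeing the data, it was 1 for fatty acid against the high and 2 against the low glucose control, and 0 for cholesterol. Among the single changes, the offset, the stricter filter and the averaging of probe sets could not have raised a count of 0. The count for the related lists, whose alternatives were chosen after seeing the data, was 2 under each alternative. Under every scaling the median difference of all genes stayed within 0.07 of 0. Of 196 signs of single Hox differences checked under other scalings and the offset, 186 were kept. The offset cannot change a sign, so only the checks under other scalings could have failed. The exceptions were Hoxa6 and Hoxb8 with cholesterol and Hoxc13, Hoxd10 and Hoxd12 with fatty acid. No paired analysis was possible because each group has 1 array and the labels give no replicate numbers. Values near the median lie close to the upper end of the signal of receptor genes (95th percentile log2 6.84, median 4.52), so small differences there are the least certain.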

Other observations

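Several genes that act upstream of Hox genes in the embryo were above the array-wide median, 7 of 8 measured, against 63.6% of all genes. Egr2, which switches on Hoxa2 and Hoxb2 in the hindbrain, read 8.27 in the low and 8.15 in the high glucose control, 7.97 with LZ serum, 8.0 with OZ serum, 9.0 with cholesterol and 9.37 with fatty acid. It was above every other array in both lipid libraries, at least 2.15-fold higher than either control with fatty acid and 1.66-fold with cholesterol. Hoxb2 was 0.31 higher with fatty acid at the least and lower than both controls with cholesterol, and Hoxa2 stayed below the median on all arrays. Ctcf, which marks borders within the clusters, had a mean of 10.25 and Gdf11, a signal for the trunk-to-tail shift, 9.02. Of the Cdx factors, Cdx1 and Cdx2 had means of 7.04 and 7.39 and Cdx4 5.47. Egr2 was named by the rule, and its setting beside Hoxb2 was chosen after the values were seen, with no test.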
